A study of Homo sapiens with 12 samples.

Results

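Interferon-stimulated genes were examined across 12 expression arrays of HK-2 cells, a line of immortalized human proximal tubule epithelial cells. A list of 36 such genes was used, and every probe set that the platform annotation gave to exactly 1 of them was taken. This gave 56 probe sets for 35 genes, of 41097 probe sets with 1 gene symbol in a table of 54675. STAT2 had no probe set named for it alone and was not analysed here. There are 4 groups with 3 arrays each: CsA for 48 h, control at 48 h, CsA for 12 h, and control at 12 h. CsA is read here as cyclosporin A, an immunosuppressant that binds cyclophilins and inhibits calcineurin and that is toxic to the kidney. The labels call the replicates biological, say that controls received the vehicle, and give 1 cell line and no genetic change. All cells were grown in a medium with insulin, transferrin, EGF and hydrocortisone, a glucocorticoid, and were nearly confluent when exposure began. Neither the CsA dose nor the nature of the vehicle is stated in the labels. The study asked which transcripts change in these cells after exposure to a nephrotoxic compound.

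Interferons are secreted proteins that warn cells of infection. Type I interferons bind the IFNAR1 and IFNAR2 receptor chains and type II interferon binds IFNGR1 and IFNGR2. The receptors act through JAK kinases on STAT proteins. A complex that holds STAT2 and IRF9 binds the interferon-stimulated response element (ISRE), and pairs of STAT proteins bind the gamma-activated site (GAS). The genes so induced detect foreign RNA, block virus entry, translation or release, and feed back on the pathway. Kidney tubule cells, like most cells, carry the receptors and the RNA sensors, and many of these genes keep a basal level without added interferon.

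A log2 value of 4 was used as the level for background: a probe set under 4 on each of the 3 arrays in a group is called near background in that group. In the same table, 33 probe sets of 22 genes restricted to other tissues averaged 1.58 to 3.11, all under 4. Between 42.2% and 42.8% of all probe sets lay above 4 on each array. Of 14 markers of proximal tubule and epithelium, 6 averaged above 4 (KRT8, KRT18, KRT19, EPCAM, CDH6 and PAX8). The brush-border and transport markers ANPEP, GGT1, LRP2, CUBN, AQP1 and SLC34A1 did not, nor did CDH1 and PAX2. None of 6 measured leukocyte markers and none of 4 endothelial markers averaged above 4. Of 5 plasmacytoid dendritic cell markers, 1 did, TCF4, which is not restricted to those cells. Of 5 fibroblast and mesangium markers, 4 did (COL1A1, DCN, LUM and PDGFRB), with a list mean of 5.21 to 6.19 with CsA at 48 h, against 6.05 to 6.43 in controls at 48 h, and their part in the results was not tested. The 3 arrays that stood apart on spiked controls are all from 48 h. Hybridization controls had a median of 10.47 on replicate 3 with CsA, and of 11.53 to 12.72 on the remaining arrays. Poly-A controls had a median of 4.13 on replicate 1 with CsA and of 3.78 on replicate 1 of the controls, and the remaining arrays gave 8.26 to 9.99. The median SD of the tested member probe sets was 0.333 with CsA at 48 h and 0.239 in controls at 48 h, against 0.150 with CsA at 12 h and 0.154 in controls at 12 h.

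Of the 56 member probe sets, 20 were near background with CsA at 48 h and 20 in controls at 48 h, and 19 with CsA at 12 h and 20 in controls at 12 h. That is 33.9% to 35.7% of them, against 49.5% to 50.1% of all probe sets with 1 gene symbol. With the level moved to 5 the counts were 21 in both groups at 48 h, and 22 with CsA and 23 in controls at 12 h, and with the level at 3 they were 17 in every group. The counts therefore moved little with treatment or time. In all, 18 probe sets were near background in all 4 groups, 35 in none, and 3 in some.

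All probe sets of 6 genes were near background in every group: MX2, OAS2, OASL, IFI6, IFI27 and XAF1. MX2, a nuclear-pore GTPase that blocks lentiviruses, read between 1.81 and 1.83 on all 12 arrays. IFI27, a small mitochondrial protein gene that interferon strongly induces in many cells, read 1.94 to 1.96. IFI6, which encodes another small interferon-induced membrane protein, read 2.32 to 2.63. These values lie within the range of the tissue-restricted genes. USP18, which removes ISG15 from proteins and blunts type I receptor signalling, had log2 values of 2.81, 2.96 and 3.04 with CsA, against 2.99, 3.03 and 3.60 in control cells at 48 h. At 12 h USP18 had 3.30, 4.11 and 2.87 with CsA, against 3.04, 3.04 and 3.04 in control cells. Its single value above 4 was the second CsA array at 12 h.

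The 3 probe sets near background in only some groups belonged to USP18, PARP9 and TRIM22. PARP9 227807_at was under 4 on all 48 h arrays and on 2 of 6 at 12 h. TRIM22 was near background in both groups at 12 h and bright in both at 48 h. For 6 other genes (IFI44, IFIH1, OAS1, OAS3, HERC6 and PARP14) some probe sets were dim in every group while another was bright, so a dim probe set does not show that a gene is silent. Within the filter used for testing, a value above 4 on at least 3 arrays, 37 probe sets of 28 member genes remained among 20625 tested.

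Many promoters of the members carry the letters of the element named for the group. RefSeq windows of 250 bases before to 50 after the gene start (GRCh38.p14) were found for 29 members (36 windows). The other 7, MX2, OAS2, OASL, IRF7, TRIM22, IFIT2 and USP18, had none here. The ISRE was searched as GAAA, any 2 bases and GAAA, or on the other strand TTTC, any 2 bases and TTTC. GAS was searched as TTC, any 3 bases and GAA, which reads the same on both strands. At least 1 ISRE match was present in 25 of the 36 windows, covering 21 of 29 genes (72.4%), against 3.57% of all 35116 windows and 4.38% of all genes. GAS matches were present for 10 of 29 genes (34.5%), against 7.66% of all windows and 9.38% of all genes. Matches of the same or the other motif can overlap, as in MX1, where the GAS letters begin inside the ISRE. No ISRE match was present in the windows of HERC6, IFI35, IRF1, IRF9, OAS1, RIGI, STAT2 and XAF1. A match is a run of letters, not evidence of binding. The stretches below are from members described further on and run 5′ to 3′ on the strand of the gene, with the motif in capitals.
ISRE of IFIT1 chr10:89392497-89392526 plus strand: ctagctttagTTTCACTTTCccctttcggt
ISRE of IFIT3 chr10:89332468-89332497 plus strand: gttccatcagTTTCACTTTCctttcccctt
ISRE of IFIT5 chr10:89414513-89414542 plus strand: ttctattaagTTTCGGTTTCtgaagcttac
ISRE of OAS3 chr12:112938321-112938350 plus strand: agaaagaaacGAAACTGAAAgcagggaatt
ISRE of IFITM1 chr11:313990-314019 plus strand: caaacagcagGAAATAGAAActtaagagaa
ISRE of IFI44L chr1:78620365-78620394 plus strand: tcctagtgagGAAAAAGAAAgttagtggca
ISRE of ISG15 chr1:1013380-1013409 plus strand: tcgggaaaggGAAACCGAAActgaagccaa
ISRE of MX1 chr21:41431844-41431873 plus strand: ggtcactctgTTTCTCTTTCcgtgaataaa
ISRE of BST2 chr19:17405741-17405770 minus strand: tcctttctggGAAACTGAAActgaaaacct
GAS of IRF1 chr5:132490879-132490907 minus strand: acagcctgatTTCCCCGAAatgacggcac
The motif began 116 bases before the start in IFIT1, 51 in IFIT3, 45 in IFIT5, 143 in OAS3, 40 in IFITM1, 73 in IFI44L, 107 in ISG15, 196 in MX1, 130 in BST2 and 124 in IRF1. IFI44L holds the same 30 letters again 164 bases before its start. IRF1 and IRF9 held a GAS match and no ISRE match, and RIGI held neither in this window.

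The comparisons that follow share groups: each time comparison uses arrays that also enter a CsA comparison. The heat map gives the 37 tested probe sets on every array.

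**Figure D1:**
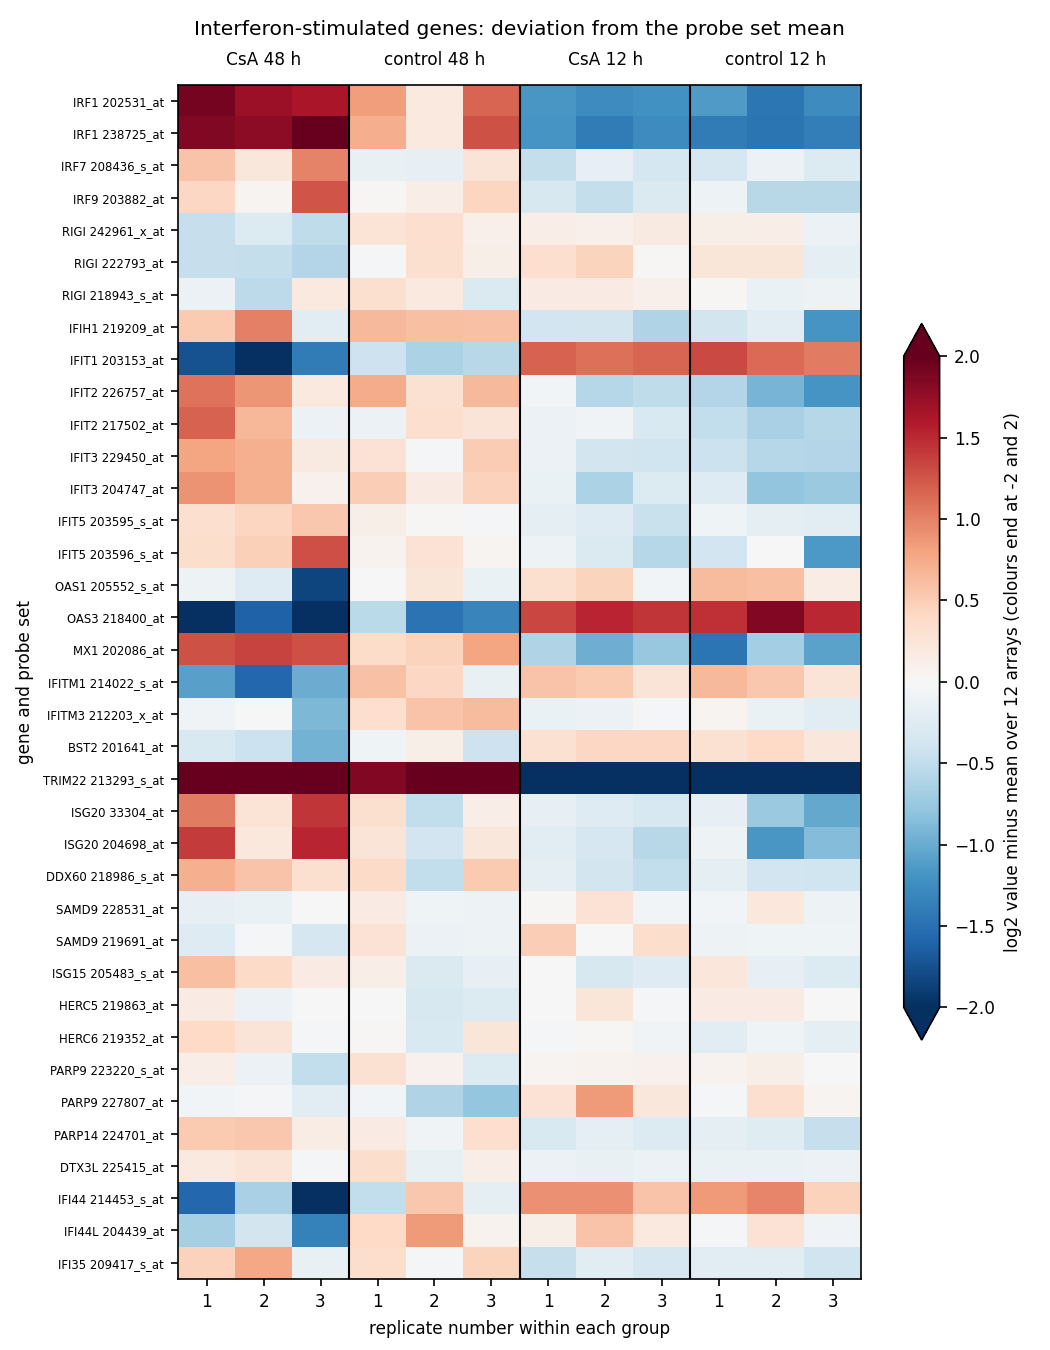
Heat map of the 37 tested probe sets of interferon-stimulated genes (rows, ordered by role) on the 12 arrays (columns, replicates 1 to 3 of each group). Colour gives the log2 value minus the mean of that probe set over all arrays, with colours ending at -2 and 2. The 12 h groups look alike, TRIM22, IRF1 and MX1 are higher at 48 h, IFIT1, OAS3 and IFI44 are lower there, and the CsA columns at 48 h are the most extreme for IRF1, IFIT1 and IFI44.

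After 12 h of CsA, no member probe set passed the threshold. In limma, 0 of 37 had a Benjamini-Hochberg adjusted p under 0.05, against 0% of the 20625 probe sets tested. At an unadjusted p under 0.05 there were 5 member probe sets, against 6.50% (1341) of all. Groups did not overlap for 6 member probe sets (16.2% of 37), against 12.0% of all probe sets. All 6 were higher with CsA and none lower, against 6.20% higher and 5.78% lower of all. The median log2 change of the 37 was 0.07, against -0.0029 for all probe sets tested.

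Both probe sets of IFIT2, which encodes an RNA-binding protein that limits viral translation, were in this set of 6. At 12 h IFIT2 226757_at had log2 values of 9.13, 8.61 and 8.68 with CsA, against 8.61, 8.26 and 8.01 in control cells. Every CsA array was at or above every control array, with the lowest CsA value level with the highest control value to 2 decimals. The log2 change was 0.52 (SE 0.20, adjusted p = 0.752), with a 95% interval of 0.03 to 1.00. This SE and interval do not use the pairing of the 12 h arrays. With replicate numbers as a block, which pair them, the adjusted p was 0.276. At 12 h IFIT2 217502_at had 5.70, 5.75 and 5.52 with CsA, against 5.33, 5.17 and 5.25 in control cells. Here the groups were clearly apart, by a log2 change of 0.40 (SE 0.08, adjusted p = 0.591, or 0.282 with the replicate block). The other 4 were IFIT3 229450_at at 0.24, SAMD9 219691_at at 0.38, RIGI 218943_s_at at 0.21 and HERC6 219352_at at 0.14. Over all 37, log2 changes ran from -0.22 to 0.52.

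At 48 h of CsA the members spread out in both directions, but none passed the threshold. IRF1, MX1, IFIT5 and ISG15 were higher in all 3 CsA arrays than in all 3 control arrays, by log2 changes of 0.40 to 1.23. IFITM1, IFI44, IFIT1, IFI44L, IFITM3, OAS3 and RIGI were lower in all 3 CsA arrays, by log2 changes of -1.50 to -0.65. In limma on the 48 h arrays, 0 of 37 passed, against 0.0388% (8 of 20625) over all. At an unadjusted p under 0.05 there were 17 member probe sets, against 19.5% (4025) of all. Groups did not overlap for 14 of 37 (37.8%), against 27.5% of all probe sets. Of these, 6 were higher and 8 lower, against 12.5% higher and 15.0% lower of all. The median log2 change was 0.19, against -0.011 over all.

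A fit of all 12 arrays with 1 shared spread called 12 of the 37 (32.4%), against 12.7% of all probe sets. It called 4 higher and 8 lower, against 4.52% higher and 8.18% lower of all. Those 4 were both IRF1 probe sets, MX1 and IFIT5 203595_s_at, and the 8 were IFITM1, IFITM3, IFIT1, OAS3, IFI44, IFI44L and a pair for RIGI. That fit judges the 48 h arrays by a spread shared with the tighter 12 h arrays. In simulated data, 200 of the 20625 probe sets were changed 2-fold and the others not at all. There 42.0% of the calls of the shared fit at 48 h were false, against 9.34% for the fit of the 48 h arrays alone. These shares depend on how many probe sets change, which is not known for the real arrays. The calls of the shared fit are therefore given only as an alternative. It recovered 71.1% of simulated 2-fold changes, against 30.1% for the fit of the 48 h arrays alone. The absence of calls in the latter fit therefore does not show the absence of changes of that size.

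**Figure D2:**
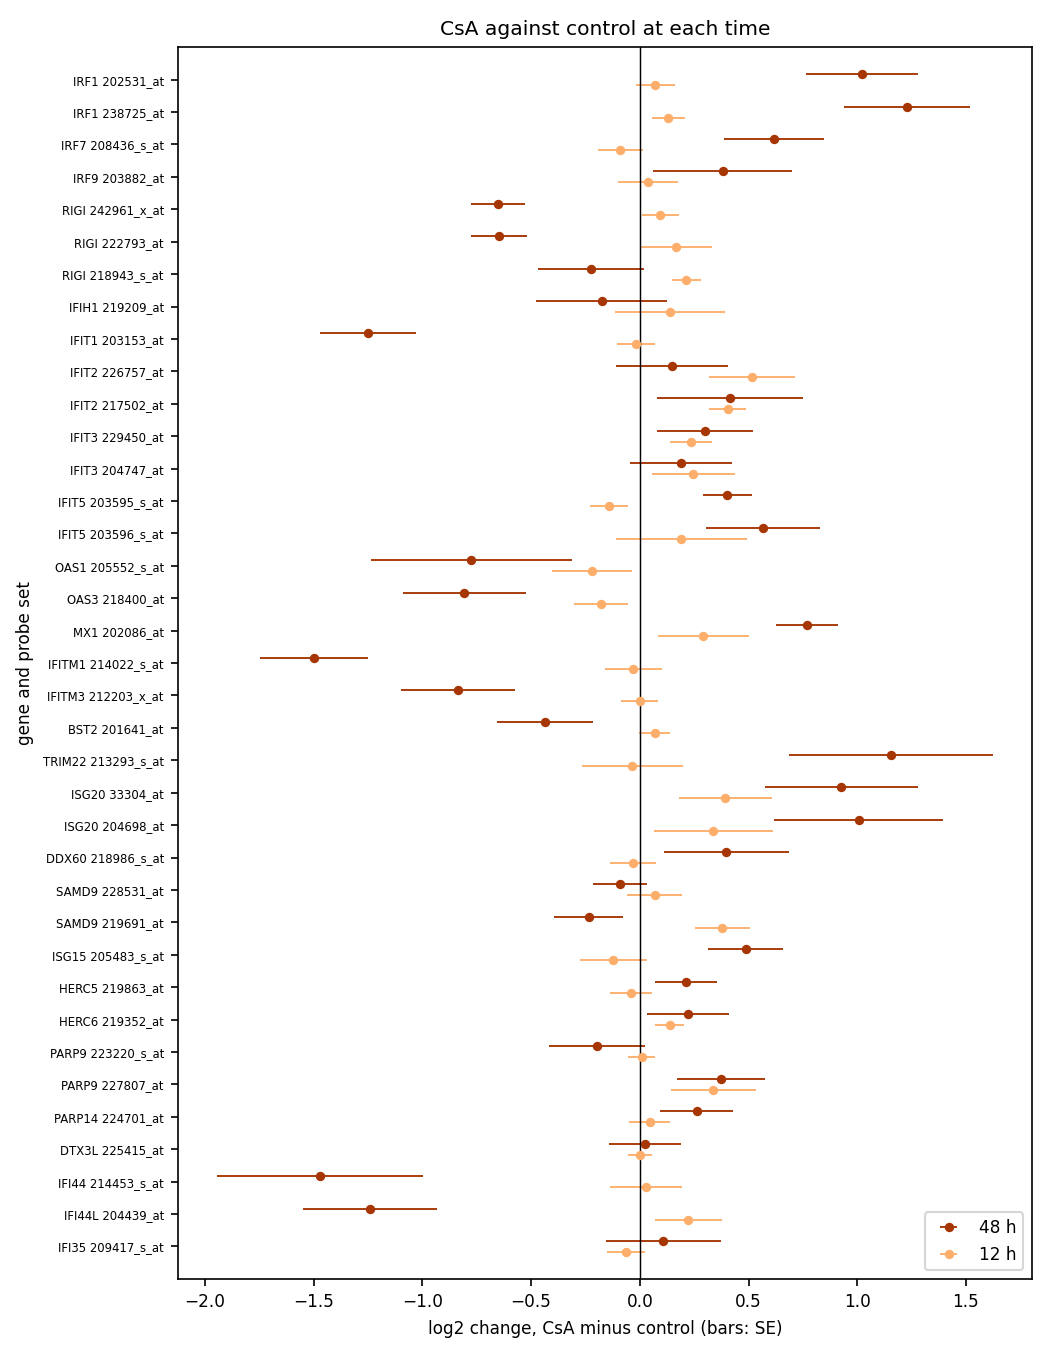
Log2 change with CsA against control for each tested probe set (rows), at 48 h (dark) and 12 h (light), with bars of 1 SE from the fit of that time's 6 arrays. At 48 h changes span -1.50 (IFITM1) to 1.23 (IRF1), while at 12 h they span -0.22 to 0.52.

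Over time, by contrast, many members changed in both treatments. Between 12 h and 48 h of CsA, 24 of 37 probe sets passed (64.9%), against 39.6% of all probe sets tested. These were 15 higher in 11 genes and 9 lower in 8 genes, against 19.6% higher and 20.0% lower of all. In control cells, 15 of 37 passed (40.5%), against 39.3% of all, a share near the background. These were 13 higher in 10 genes and 2 lower, against 20.4% higher and 18.8% lower of all. With replicate numbers as a block, which pair these control arrays, 16 passed, against 39.6% of all. These were 11 higher and 5 lower, against 21.2% higher and 18.4% lower of all. The calls higher at 48 h include TRIM22, whose 12 h arrays were near background and which passed the filter through its 48 h arrays. The median log2 change of the 37 was 0.58 with CsA and 0.24 in control cells, against 0.015 over all probe sets in each. Leaving out replicate 3 of CsA at 12 h gave 14 calls with CsA, leaving out replicate 1 of CsA at 48 h gave 15, and the range over single arrays was 14 to 30. In control cells the range was 12 to 18. Shares of all probe sets in the fits without single arrays are not given here.

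**Figure D3:**
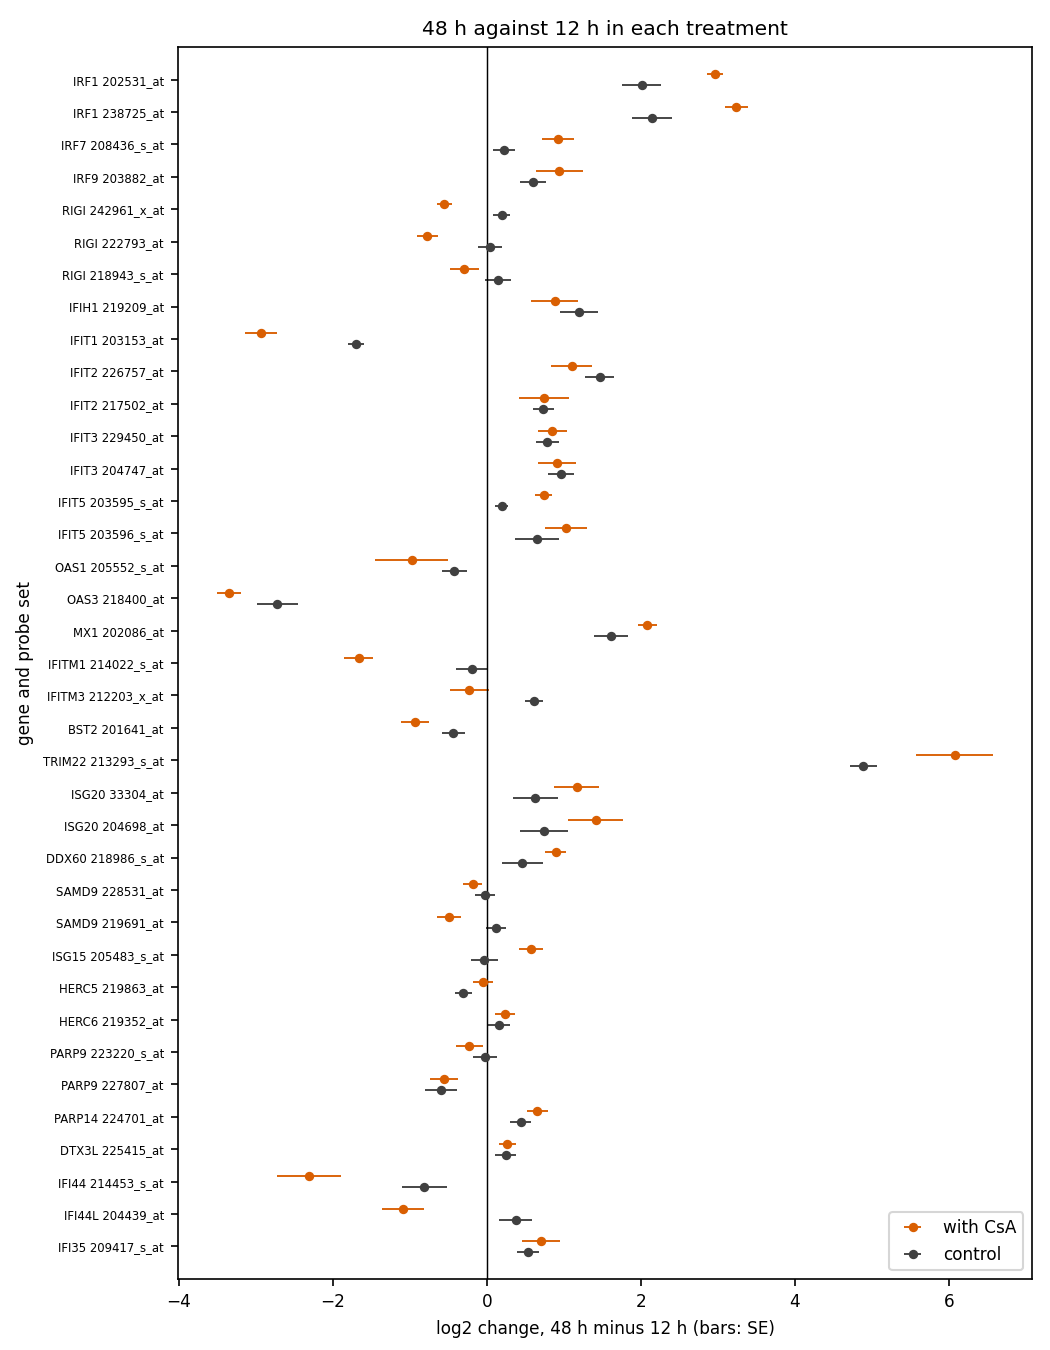
Log2 change at 48 h against 12 h for each tested probe set (rows), in CsA cells (orange) and control cells (grey), with bars of 1 SE from the fit of that treatment's 6 arrays. TRIM22 is drawn from 12 h values near background and PARP9 227807_at from 48 h values near background, so their places on the axis have no exact size. Of the others, IRF1 238725_at lies farthest right, at 3.24 with CsA and 2.14 in control cells, and OAS3 farthest left, at -3.35 with CsA and -2.72 in control cells.

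Among the transcription factors, IRF1 rose with time in both treatments. IRF1 binds ISRE-like sites and is itself induced through GAS by interferon gamma. At 48 h IRF1 202531_at had log2 values of 11.08, 10.89 and 10.81 with CsA, against 10.01, 9.36 and 10.34 in control cells. At 12 h IRF1 202531_at had 8.01, 7.92 and 7.97 with CsA, against 8.03, 7.73 and 7.92 in control cells. The 12 h groups overlapped, and at 48 h every CsA array was above every control array. The log2 change over time was 2.96 (SE 0.11, adjusted p = 0.000118) with CsA and 2.01 (SE 0.25, adjusted p = 0.0018) in control cells. With CsA against control at 48 h it was 1.02 (SE 0.26, adjusted p = 0.128), with a 95% interval of 0.40 to 1.65. The second probe set, 238725_at, gave the same picture. At 48 h IRF1 238725_at had 9.48, 9.42 and 9.87 with CsA, against 8.35, 7.82 and 8.90 in control cells. At 12 h IRF1 238725_at had 6.44, 6.24 and 6.37 with CsA, against 6.24, 6.17 and 6.24 in control cells. The 3 CsA arrays at 48 h were again the highest of all 12. Its log2 change over time was 3.24 (SE 0.15, adjusted p = 0.000182) with CsA and 2.14 (SE 0.26, adjusted p = 0.00164) in control cells, and the CsA change at 48 h was 1.23 (SE 0.29, adjusted p = 0.116).

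IRF7, the main activator of type I interferon genes, rose over time with CsA. At 48 h IRF7 208436_s_at had log2 values of 8.03, 7.69 and 8.46 with CsA, against 7.32, 7.30 and 7.72 in control cells. At 12 h IRF7 had 6.99, 7.30 and 7.11 with CsA, against 7.13, 7.35 and 7.20 in control cells. The 48 h groups overlapped by 1 array each. The log2 change over time was 0.93 (SE 0.21, adjusted p = 0.0169) with CsA and 0.22 (SE 0.14, adjusted p = 0.255) in control cells. The call with CsA was lost without replicate 1 or 3 at 12 h or replicate 1 at 48 h, with log2 changes of 0.86 to 0.94. IRF9, the DNA-binding subunit of the complex with STAT2, rose over time in control cells. At 48 h IRF9 203882_at had 7.55, 7.18 and 8.40 with CsA, against 7.16, 7.26 and 7.56 in control cells. At 12 h IRF9 had 6.81, 6.66 and 6.85 with CsA, against 7.02, 6.59 and 6.58 in control cells. Replicate 3 of CsA at 48 h was the highest value. The log2 change over time was 0.94 (SE 0.31, adjusted p = 0.0546) with CsA, which did not pass, and 0.60 (SE 0.17, adjusted p = 0.0324) in control cells. With replicate numbers as a block, the control change had an adjusted p = 0.0689 and was not called, and without replicate 2 or 3 of either control group it was 0.48 to 0.63 and not called. The difference between the treatments over time was 0.34 (SE 0.37, adjusted p = 0.708).

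The cytosolic RNA sensors were called in different comparisons, and no difference between the treatments passed. The calls were for 2 of 3 RIGI probe sets over time with CsA, and for IFIH1 over time in control cells. RIGI, which detects viral RNA with a free end, was lower with CsA at 48 h on 2 of its 3 probe sets. At 48 h RIGI 242961_x_at had log2 values of 9.15, 9.33 and 9.10 with CsA, against 9.89, 9.95 and 9.71 in control cells. At 12 h RIGI 242961_x_at had 9.75, 9.72 and 9.79 with CsA, against 9.73, 9.74 and 9.50 in control cells. The 3 CsA arrays at 48 h were the lowest of all 12. RIGI 242961_x_at fell over time with CsA, with a log2 change of -0.56 (SE 0.10, adjusted p = 0.00729). In control cells the change was 0.19 (SE 0.11, adjusted p = 0.206). The CsA change at 48 h was -0.65 (SE 0.12, adjusted p = 0.0864), with a 95% interval of -0.96 to -0.35. Names ending in x_at mark probe sets that can share sequence with related genes.

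The second RIGI probe set does not carry that mark. At 48 h RIGI 222793_at had 8.87, 8.86 and 8.74 with CsA, against 9.31, 9.65 and 9.45 in control cells. At 12 h RIGI 222793_at had 9.67, 9.78 and 9.35 with CsA, against 9.58, 9.57 and 9.15 in control cells. The 48 h groups did not overlap. Its log2 change was -0.78 (SE 0.14, adjusted p = 0.00676) over time with CsA, 0.04 (SE 0.15, adjusted p = 0.864) over time in control cells, and -0.65 (SE 0.13, adjusted p = 0.0908) with CsA at 48 h. At 48 h RIGI 218943_s_at had 8.87, 8.45 and 9.17 with CsA, against 9.29, 9.18 and 8.69 in control cells. At 12 h RIGI 218943_s_at had 9.15, 9.14 and 9.08 with CsA, against 9.00, 8.84 and 8.88 in control cells. This probe set differed by -0.23 (SE 0.24, adjusted p = 0.653) with CsA at 48 h and its groups overlapped there. Over time with CsA its log2 change was -0.29 (SE 0.19, adjusted p = 0.26), which did not pass. The RIGI probe sets therefore did not all give the same size or the same call. IFIH1, the sensor of long double-stranded RNA, rose over time in control cells. At 48 h IFIH1 219209_at had 6.49, 6.97 and 5.74 with CsA, against 6.62, 6.56 and 6.55 in control cells. At 12 h IFIH1 had 5.59, 5.60 and 5.37 with CsA, against 5.60, 5.75 and 4.79 in control cells. The control arrays at 48 h were tightly grouped within the wider CsA range. The log2 change over time was 0.88 (SE 0.31, adjusted p = 0.0662) with CsA, which did not pass, and 1.20 (SE 0.25, adjusted p = 0.0115) in control cells. Its CsA change at 48 h was -0.18 (SE 0.30, adjusted p = 0.791).

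The IFIT genes encode RNA-binding proteins that hold back translation of viral RNA. In the RefSeq gene order they lie together on chromosome 10, IFIT2 next to IFIT3, then 1 other protein-coding gene, IFIT1 and IFIT5. They did not move as 1 group: IFIT1 fell over time, while IFIT3 and 1 of the 2 IFIT2 probe sets rose in both treatments and IFIT5 rose with CsA. At 48 h IFIT1 203153_at had log2 values of 6.20, 5.71 and 6.53 with CsA, against 7.51, 7.30 and 7.38 in control cells. At 12 h IFIT1 had 9.11, 9.04 and 9.09 with CsA, against 9.26, 9.06 and 8.98 in control cells. All 48 h arrays were below all 12 h arrays, and the CsA arrays at 48 h were below the control arrays there. IFIT1 fell over time in both treatments, with a log2 change of -2.93 (SE 0.21, adjusted p = 0.000478) with CsA and -1.70 (SE 0.11, adjusted p = 0.000207) in control cells. With CsA against control at 48 h the change was -1.25 (SE 0.22, adjusted p = 0.0799), with a 95% interval of -1.78 to -0.72.

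At 48 h IFIT2 226757_at had log2 values of 10.27, 10.07 and 9.38 with CsA, against 9.94, 9.50 and 9.85 in control cells. The groups overlapped, and all 6 values were above every 12 h value given earlier. The log2 change over time was 1.10 (SE 0.27, adjusted p = 0.0213) with CsA and 1.47 (SE 0.19, adjusted p = 0.00198) in control cells. With CsA this call was lost without replicate 2 or 3 at 12 h or replicate 1 or 2 at 48 h, with log2 changes of 0.92 to 1.03. At 48 h IFIT2 217502_at had 7.01, 6.49 and 5.71 with CsA, against 5.71, 6.16 and 6.08 in control cells. Replicate 3 with CsA was as low as its own 12 h values. The log2 change was 0.74 (SE 0.32, adjusted p = 0.118) with CsA and 0.73 (SE 0.14, adjusted p = 0.0074) in control cells.

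IFIT3 binds IFIT1 and steadies its hold on RNA. At 48 h IFIT3 229450_at had log2 values of 11.14, 11.07 and 10.53 with CsA, against 10.64, 10.33 and 10.87 in control cells. At 12 h IFIT3 229450_at had 10.23, 9.99 and 9.96 with CsA, against 9.92, 9.78 and 9.77 in control cells. All 48 h values were above all 12 h values. It rose over time by 0.85 (SE 0.19, adjusted p = 0.0156) with CsA and by 0.79 (SE 0.15, adjusted p = 0.00792) in control cells on the log2 scale. At 48 h IFIT3 204747_at had 9.55, 9.38 and 8.74 with CsA, against 9.16, 8.83 and 9.12 in control cells. At 12 h IFIT3 204747_at had 8.53, 8.03 and 8.39 with CsA, against 8.41, 7.88 and 7.93 in control cells. The times again did not overlap. Its log2 change was 0.91 (SE 0.25, adjusted p = 0.031) with CsA and 0.96 (SE 0.17, adjusted p = 0.00677) in control cells. With CsA the call of 229450_at was lost without replicate 2 or 3 at 12 h or replicate 1 at 48 h (0.74 to 0.81), and that of 204747_at was lost when any single array but replicate 3 at 48 h was left out (0.74 to 1.01).

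IFIT5, which binds RNA with a free phosphate end, rose over time with CsA. At 48 h IFIT5 203595_s_at had log2 values of 9.86, 9.95 and 10.07 with CsA, against 9.64, 9.55 and 9.48 in control cells. At 12 h IFIT5 203595_s_at had 9.33, 9.27 and 9.08 with CsA, against 9.45, 9.33 and 9.32 in control cells. The 3 CsA arrays at 48 h were the highest of all. Its log2 change over time was 0.74 (SE 0.11, adjusted p = 0.00418) with CsA, and 0.19 (SE 0.08, adjusted p = 0.121) in control cells. With CsA at 48 h it was 0.40 (SE 0.11, adjusted p = 0.146). At 48 h IFIT5 203596_s_at had 4.95, 5.08 and 5.90 with CsA, against 4.67, 4.89 and 4.66 in control cells. At 12 h IFIT5 203596_s_at had 4.50, 4.32 and 4.03 with CsA, against 4.22, 4.61 and 3.45 in control cells. This probe set was close to background, and replicate 3 with CsA at 48 h stood highest. Its log2 change was 1.02 (SE 0.28, adjusted p = 0.0299) over time with CsA, lost without any one of the CsA arrays at 12 h (0.90 to 1.13), and 0.57 (SE 0.26, adjusted p = 0.304) with CsA at 48 h. Without replicate 3 of CsA at 48 h that CsA change was 0.27.

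The OAS enzymes sense double-stranded RNA and make oligoadenylates that activate RNase L. OAS1, OAS3 and OAS2 are neighbours on chromosome 12, and OAS2 was near background. At 48 h OAS3 218400_at had log2 values of 5.86, 6.33 and 5.86 with CsA, against 7.40, 6.46 and 6.61 in control cells. At 12 h OAS3 had 9.27, 9.46 and 9.37 with CsA, against 9.39, 9.80 and 9.44 in control cells. Every 48 h array was far below every 12 h array, and the CsA arrays at 48 h were below the controls there. OAS3 fell over time in both treatments, with a log2 change of -3.35 (SE 0.15, adjusted p = 0.000194) with CsA and -2.72 (SE 0.27, adjusted p = 0.000784) in control cells, the largest falls among the 37. With CsA at 48 h the change was -0.81 (SE 0.28, adjusted p = 0.202), or -0.52 without replicate 1 of the controls. OAS1 205552_s_at ranged from 3.80 to 6.27 over the 12 arrays and had a log2 change over time of -0.98 (SE 0.47, adjusted p = 0.152) with CsA, where the lowest array was replicate 3 at 48 h. In control cells it was -0.42 (SE 0.17, adjusted p = 0.093), and with the replicate block OAS1 passed at an adjusted p = 0.0367.

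MX1, a GTPase that traps the nucleocapsids of influenza and other viruses, rose in both treatments. At 48 h MX1 202086_at had log2 values of 7.97, 8.05 and 7.99 with CsA, against 7.07, 7.15 and 7.49 in control cells. At 12 h MX1 had 6.10, 5.73 and 5.94 with CsA, against 5.24, 6.02 and 5.63 in control cells. The CsA arrays at 48 h lay close together and above all controls, while the 12 h groups overlapped. Its log2 change over time was 2.08 (SE 0.12, adjusted p = 0.000305) with CsA and 1.61 (SE 0.22, adjusted p = 0.00251) in control cells. With CsA at 48 h it was 0.77 (SE 0.14, adjusted p = 0.0839), with a 95% interval of 0.43 to 1.11. MX2, its neighbour on chromosome 21, was near background throughout.

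IFITM1 and IFITM3, neighbours on chromosome 11, encode membrane proteins that block fusion of viruses with the cell. At 48 h IFITM1 214022_s_at had log2 values of 8.21, 7.72 and 8.30 with CsA, against 9.88, 9.71 and 9.15 in control cells. At 12 h IFITM1 had 9.86, 9.82 and 9.56 with CsA, against 9.94, 9.83 and 9.56 in control cells. The 3 CsA arrays at 48 h were the lowest and the other 9 overlapped. IFITM1 fell over time with CsA, with a log2 change of -1.67 (SE 0.18, adjusted p = 0.00154). In control cells the change was -0.20 (SE 0.21, adjusted p = 0.492), and with CsA at 48 h it was -1.50 (SE 0.25, adjusted p = 0.0728), with a 95% interval of -2.10 to -0.90.

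At 48 h IFITM3 212203_x_at had 11.23, 11.32 and 10.41 with CsA, against 11.65, 11.88 and 11.93 in control cells. At 12 h IFITM3 had 11.18, 11.19 and 11.27 with CsA, against 11.36, 11.18 and 11.10 in control cells. Here the 48 h controls were the highest group, and the CsA arrays at 48 h, apart from replicate 3, matched the 12 h level. IFITM3 rose over time in control cells: the log2 change was -0.23 (SE 0.25, adjusted p = 0.5) with CsA and 0.61 (SE 0.12, adjusted p = 0.00839) in control cells. The CsA change at 48 h was -0.84 (SE 0.26, adjusted p = 0.17), or -0.55 when replicate 3 with CsA, which had low hybridization controls, was left out. BST2, or tetherin, holds budding viruses at the cell surface and fell over time with CsA. At 48 h BST2 201641_at had 11.08, 10.96 and 10.43 with CsA, against 11.30, 11.50 and 10.98 in control cells. At 12 h BST2 had 11.70, 11.79 and 11.80 with CsA, against 11.69, 11.78 and 11.61 in control cells. The 48 h values lay below the 12 h values in both treatments. Its log2 change over time was -0.94 (SE 0.18, adjusted p = 0.0096) with CsA and -0.44 (SE 0.15, adjusted p = 0.0569) in control cells. With the replicate block the change in control cells passed, at an adjusted p = 0.0353. The CsA change at 48 h was -0.44 (SE 0.22, adjusted p = 0.34).

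TRIM22, a ubiquitin ligase that restricts several viruses, was near background at 12 h and bright at 48 h in both treatments. At 48 h TRIM22 213293_s_at had log2 values of 9.48, 9.52 and 7.85 with CsA, against 7.48, 8.01 and 7.89 in control cells. At 12 h TRIM22 had 3.17, 3.07 and 2.38 with CsA, against 2.70, 3.12 and 2.90 in control cells. All 12 h arrays were under 4, and all 48 h arrays were far above it. Against a log2 value of 4 in place of the dim 12 h values, TRIM22 was at least 4.95 higher at 48 h with CsA on the log2 scale. In control cells it was at least 3.79 higher. TRIM22 passed the filter through its 48 h arrays alone, so a higher level at 48 h is partly built in. Its adjusted p-values over time are therefore not given. With CsA at 48 h, replicates 1 and 2 were above all controls and replicate 3 within them, for a log2 change of 1.15 (SE 0.47, adjusted p = 0.252). TRIM22 had a single probe set, so no second reading was available.

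**Figure D4:**
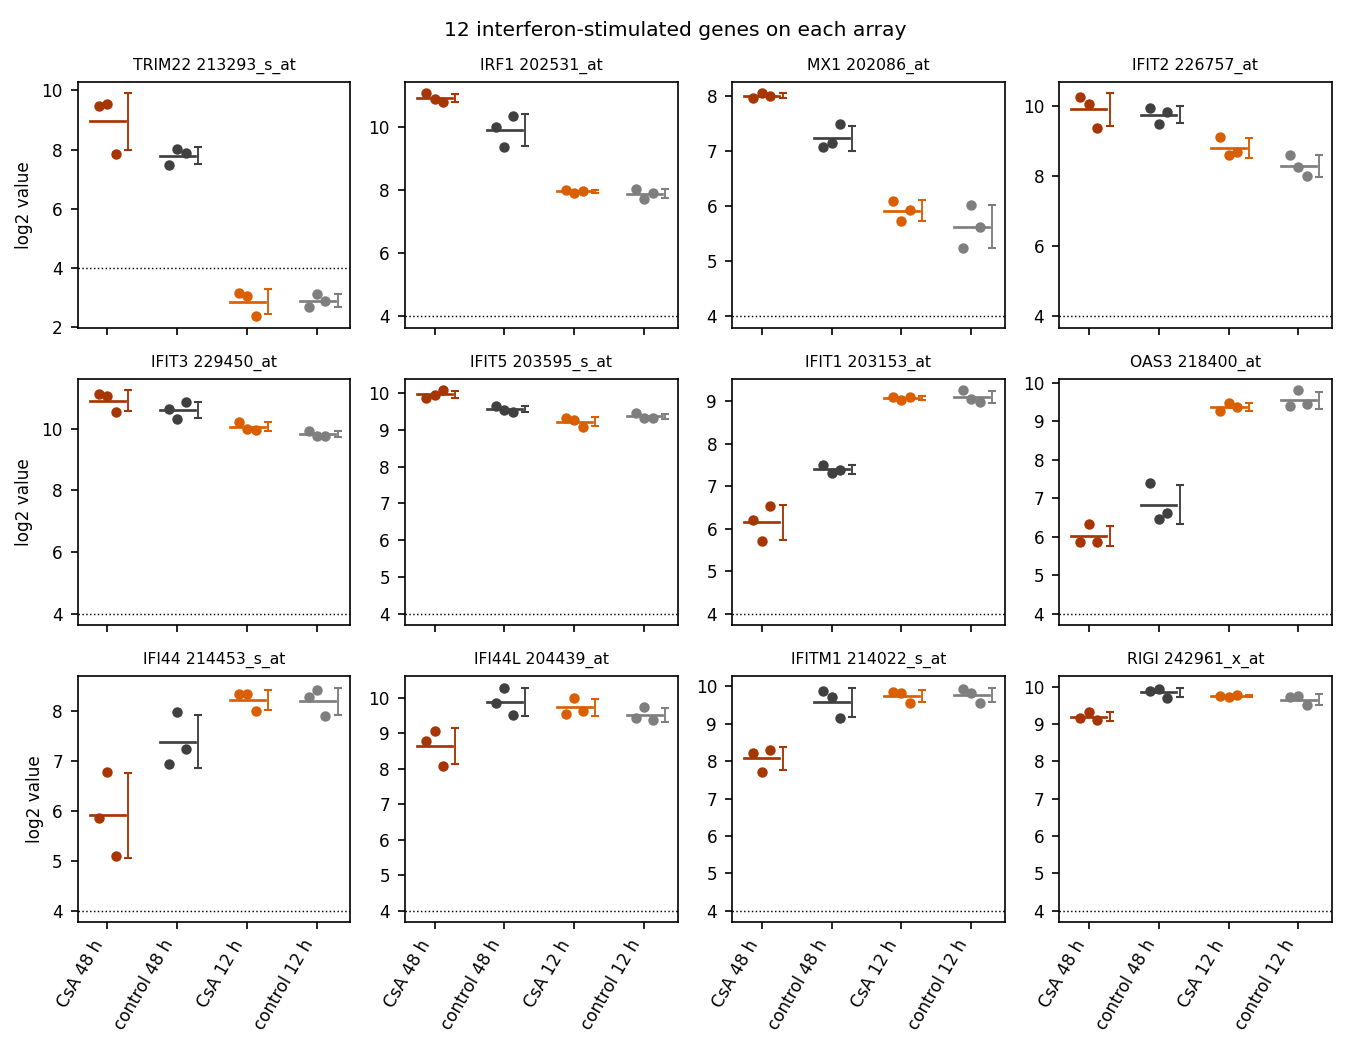
Log2 values of 12 members on each array (dots, replicates 1 to 3 from left to right), with the group mean (line) and SD (bar beside it, n = 3), for CsA and control at 48 h and at 12 h. The dotted line marks a log2 value of 4, and each panel has its own scale. TRIM22 lies below the line at 12 h and between 7.48 and 9.52 at 48 h, while IFIT1, OAS3 and IFI44 are lower at 48 h.

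ISG20, an exonuclease that degrades viral RNA, rose over time with CsA. At 48 h ISG20 33304_at had log2 values of 8.05, 7.29 and 8.45 with CsA, against 7.34, 6.52 and 7.14 in control cells. At 12 h ISG20 33304_at had 6.85, 6.76 and 6.69 with CsA, against 6.85, 6.28 and 5.99 in control cells. Replicate 2 was the lowest of both 48 h groups. Its log2 change over time was 1.16 (SE 0.29, adjusted p = 0.0235) with CsA and 0.63 (SE 0.29, adjusted p = 0.134) in control cells. At 48 h ISG20 204698_at had 8.13, 6.94 and 8.26 with CsA, against 6.98, 6.35 and 6.97 in control cells. At 12 h ISG20 204698_at had 6.51, 6.40 and 6.18 with CsA, against 6.64, 5.57 and 5.86 in control cells. The CsA groups of both times did not overlap, and those of the controls did. Its log2 change was 1.41 (SE 0.36, adjusted p = 0.025) with CsA and 0.74 (SE 0.31, adjusted p = 0.107) in control cells, which passed with the replicate block (adjusted p = 0.0322). Both calls with CsA were lost without any one of the CsA arrays at 12 h or replicate 1 at 48 h, with log2 changes of 1.10 to 1.48.

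DDX60, a helicase-like protein reported to act with RIGI, rose over time with CsA. At 48 h DDX60 218986_s_at had log2 values of 8.55, 8.41 and 8.16 with CsA, against 8.21, 7.35 and 8.36 in control cells. At 12 h DDX60 had 7.64, 7.47 and 7.33 with CsA, against 7.65, 7.45 and 7.43 in control cells. Replicate 2 of the 48 h controls did not exceed the 12 h level. The log2 change was 0.89 (SE 0.14, adjusted p = 0.00486) with CsA and 0.46 (SE 0.27, adjusted p = 0.219) in control cells. SAMD9, which restricts poxviruses, was dim. At 48 h SAMD9 219691_at had 4.47, 4.68 and 4.39 with CsA, against 5.02, 4.61 and 4.62 in control cells. At 12 h SAMD9 219691_at had 5.21, 4.73 and 5.07 with CsA, against 4.62, 4.63 and 4.63 in control cells. The CsA groups of both times did not overlap. It fell over time with CsA, with a log2 change of -0.49 (SE 0.16, adjusted p = 0.0489), a call lost when any single array but replicate 2 at 12 h was left out (-0.58 to -0.39). The other SAMD9 probe set, 228531_at, had a log2 change of -0.19 (SE 0.12, adjusted p = 0.277), with values of 5.12 to 5.58 over all arrays.

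ISG15 is a small ubiquitin-like protein that is joined to other proteins, in human cells mainly by HERC5. At 48 h ISG15 205483_s_at had log2 values of 11.29, 11.07 and 10.85 with CsA, against 10.82, 10.40 and 10.53 in control cells. At 12 h ISG15 had 10.68, 10.36 and 10.43 with CsA, against 10.91, 10.52 and 10.41 in control cells. The CsA arrays at 48 h were above the controls there. ISG15 rose over time with CsA by 0.58 (SE 0.15, adjusted p = 0.0281) on the log2 scale, a call lost without replicate 2 or 3 at 12 h or replicate 1 or 2 at 48 h (0.47 to 0.57). The control cells gave -0.03 (SE 0.17, adjusted p = 0.897), and with CsA at 48 h it was 0.49 (SE 0.17, adjusted p = 0.206). HERC5 219863_at and its neighbour HERC6 219352_at passed in no comparison. Their log2 changes over time were -0.05 and 0.23 with CsA, and -0.30 and 0.15 in control cells.

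PARP9, its partner DTX3L, a ubiquitin ligase, and PARP14, an ADP-ribosyltransferase, lie close together on chromosome 3. At 48 h PARP14 224701_at had log2 values of 9.96, 9.99 and 9.60 with CsA, against 9.60, 9.37 and 9.78 in control cells. At 12 h PARP14 had 9.14, 9.27 and 9.17 with CsA, against 9.27, 9.19 and 8.98 in control cells. Both 48 h groups were above both 12 h groups. PARP14 rose over time by 0.66 (SE 0.13, adjusted p = 0.0112) with CsA and by 0.44 (SE 0.14, adjusted p = 0.0454) in control cells on the log2 scale. In control cells the call was lost with the replicate block (adjusted p = 0.0852), and when any single array but replicate 2 at 48 h was left out (0.34 to 0.50). DTX3L 225415_at passed in neither treatment, with a log2 change of 0.27 (SE 0.11, adjusted p = 0.103) with CsA and 0.24 (SE 0.13, adjusted p = 0.197) in control cells. PARP9 223220_s_at passed in neither, with -0.23 (SE 0.17, adjusted p = 0.329) with CsA and -0.02 (SE 0.15, adjusted p = 0.922) in control cells. PARP9 227807_at was near background at 48 h and passed the filter through its 12 h arrays alone, so a lower level at 48 h is partly built in. Its log2 changes over time were -0.56 with CsA and -0.59 in control cells, against dim 48 h values and so without an exact size. Neither passed, and their adjusted p-values are not given.

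IFI44 and IFI44L are neighbours on chromosome 1 and encode related proteins of less certain function. At 48 h IFI44 214453_s_at had log2 values of 5.86, 6.79 and 5.09 with CsA, against 6.93, 7.98 and 7.24 in control cells. At 12 h IFI44 had 8.34, 8.34 and 8.00 with CsA, against 8.28, 8.41 and 7.89 in control cells. CsA arrays at 48 h were the lowest of all, with replicate 3 lowest. IFI44 fell over time with CsA, with a log2 change of -2.31 (SE 0.42, adjusted p = 0.00747). The change in control cells was -0.81 (SE 0.29, adjusted p = 0.0671), which passed with the replicate block (adjusted p = 0.0411). With CsA at 48 h it was -1.47 (SE 0.47, adjusted p = 0.179), with a 95% interval of -2.62 to -0.32.

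At 48 h IFI44L 204439_at had 8.77, 9.07 and 8.08 with CsA, against 9.84, 10.28 and 9.51 in control cells. At 12 h IFI44L had 9.54, 10.00 and 9.63 with CsA, against 9.42, 9.72 and 9.36 in control cells. The CsA arrays at 48 h were below every other array. IFI44L fell over time with CsA, with a log2 change of -1.09 (SE 0.28, adjusted p = 0.0244), a call lost without any one of the CsA arrays at 12 h or replicate 1 at 48 h (-1.18 to -0.95). The change over time without CsA was 0.38 (SE 0.21, adjusted p = 0.206), of the other sign, and with CsA at 48 h it was -1.24 (SE 0.31, adjusted p = 0.126), with a 95% interval of -1.99 to -0.49. IFI35, a partner of NMI, rose over time in control cells. At 48 h IFI35 209417_s_at had 9.07, 9.38 and 8.45 with CsA, against 8.95, 8.58 and 9.04 in control cells. At 12 h IFI35 had 8.14, 8.37 and 8.27 with CsA, against 8.38, 8.38 and 8.21 in control cells. The times did not overlap in either treatment. The log2 change was 0.70 (SE 0.24, adjusted p = 0.063) with CsA and 0.53 (SE 0.14, adjusted p = 0.027) in control cells, a control call lost with the replicate block (adjusted p = 0.0521) and when any single array but replicate 2 at 48 h was left out (0.44 to 0.56).

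Whether the CsA effect differed between the times was tested directly on all 12 arrays. None of 37 passed, against 0.320% (66 of 20625) over all. In the simulated data 11.39% of the calls of this fit were false. At an unadjusted p under 0.05 there were 13 member probe sets, against 15.5% (3190) of all. The smallest adjusted p belonged to RIGI 242961_x_at, where the CsA effect at 48 h minus that at 12 h was -0.75 (SE 0.15, adjusted p = 0.0609) on the log2 scale. IFIT1 followed with -1.23 (SE 0.25, adjusted p = 0.0637), and IFITM1 with -1.47 (SE 0.30, adjusted p = 0.0637). Next came IFIT5 203595_s_at with 0.55 (SE 0.14, adjusted p = 0.109), of the other sign, and IFI44L with -1.46 (SE 0.37, adjusted p = 0.111). IRF1 238725_at had 1.10 (SE 0.32, adjusted p = 0.151), of the other sign, with a 95% interval of 0.39 to 1.80. This difference of effects equals the difference between the time changes of the treatments, so a call over time in 1 treatment and not the other is not shown to differ. With replicate numbers as a block, 1 member probe set passed, IFI44L at an adjusted p = 0.0182, against 1.18% of all. The 48 h arrays did not meet the correlation rule used for pairing, which does not show that they are unpaired. Both 48 h arrays numbered 1 had low poly-A controls, 4.13 with CsA and 3.78 in control cells. Whether same-numbered 48 h arrays were handled together was not tested. Leaving out single arrays gave 0 to 4 calls, with 2 without replicate 2 and 4 without replicate 3 of CsA at 48 h, and 4 without replicate 3 of the 48 h controls. The share of all probe sets in those fits is not given here.

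The wider pathway was read from lists chosen with earlier results known. Of 21 interferon ligand genes, 18 had a probe set, and all their values lay between 1.91 and 2.59, near background in every group. Of 6 receptor genes, 5 had tested probe sets, and the type III chain IFNLR1 was near background. None of the 10 receptor probe sets passed with CsA at 12 h or 48 h. At 48 h, 6 of the 10 were lower and 1 was higher in every CsA array than in every control array. Over all probe sets tested the shares were 15.0% lower and 12.5% higher. The 6 lower ones are the tested probe sets of the type I receptor chains, IFNAR1 and IFNAR2. They read the same genes on the same 48 h arrays, so they are not independent. IFNAR1 225661_at had log2 values of 8.71, 8.99 and 8.41 with CsA, against 9.15, 9.26 and 9.24 in control cells. The groups lay close but apart, by a log2 change of -0.51 (SE 0.17, adjusted p = 0.181). IFNAR2 204785_x_at had 10.66, 10.74 and 10.43 with CsA, against 11.06, 11.19 and 11.11 in control cells at 48 h. This change was -0.51 (SE 0.12, adjusted p = 0.12). The remaining IFNAR1 probe sets had log2 changes of -0.64 and -0.30, and the remaining IFNAR2 probe sets -0.94 and -0.74. The fit of all 12 arrays called 4 of the 10 receptor probe sets lower and 1 higher at 48 h, against 8.18% lower and 4.52% higher of all.

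The type II receptor chains moved in opposite directions over time. IFNGR1 202727_s_at rose by 1.09 (SE 0.17, adjusted p = 0.00486) with CsA and 0.93 (SE 0.11, adjusted p = 0.00153) in control cells on the log2 scale. IFNGR2 201642_at fell, with a log2 change of -1.10 (SE 0.11, adjusted p = 0.00105) with CsA and -0.85 (SE 0.14, adjusted p = 0.00445) in control cells. With CsA at 48 h, IFNGR1 202727_s_at had a log2 change of 0.22 (SE 0.15, adjusted p = 0.473) and IFNGR2 of -0.11 (SE 0.16, adjusted p = 0.734). IFNGR1 211676_s_at had log2 values of 10.73, 10.54 and 10.81 with CsA, against 10.18, 10.49 and 10.23 in control cells at 48 h. These groups did not overlap, with a log2 change of 0.40 (SE 0.14, adjusted p = 0.199). Over time it rose by 1.07 with CsA and 0.82 in control cells. IL10RB, a chain shared with other cytokine receptors, had a log2 change with CsA at 48 h of 0.24 (SE 0.16, adjusted p = 0.446). Of 25 probe sets of interferon signalling genes, 0 passed with CsA at either time, nor did any of 22 for nucleic acid sensing, 34 for MHC class I presentation and 72 for other interferon-stimulated genes. At an unadjusted p under 0.05 and 48 h, the counts were 4 of 25 for signalling (16%), 5 of 22 for sensing (22.7%), 4 of 34 for presentation (11.8%) and 12 of 72 for the other genes (16.7%), against 19.5% of all probe sets.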

How the data were processed

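RNA of HK-2 cells was measured on 12 Affymetrix arrays, per the labels' protocols. The authors deposited log2 values, 1 per probe set and array. The tool was GCRMA, per the submitters' processing notes, with no version named. GCRMA compresses dim values toward a floor, and the number of arrays limits the precision. No pair among 66 pairs of arrays held identical values.

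The platform annotation, of unnamed build, gave 1 gene symbol to 41097 of 54675 probe sets, several to 1801 and none to 11777. Of those with 1 symbol, leaving out 6 control probe sets, 20625 with a log2 value above 4 on at least 3 arrays were tested in limma 3.58.1 (R 4.3.3), two-sided, with Benjamini-Hochberg adjustment over all 20625 at 0.05. Every adjusted p given comes from limma. Each pair of groups was fitted on its own 6 arrays, and the difference of CsA effects on all 12. "Rose" and "fell" are used for calls.

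The fits were tested on simulated data with known changes before use.

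Replicate numbers come from the labels. Arrays were taken as paired where every same-numbered pair had deviations correlated above 0.1. This held for the 12 h CsA comparison (0.392 to 0.550) and for the controls over time (0.124 to 0.295). It did not hold for the 48 h comparison (-0.149 to 0.306) or for CsA over time (-0.0738 to 0.190), which does not show that those arrays are unpaired. The block is given beside a result where it changes a call among the paired comparisons.

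The members, the other gene lists and the settings were chosen with earlier results of these data known. Values on every array are given for each member probe set called in any comparison, for those with groups apart by a log2 change of at least 0.5 with CsA (up to 12 a comparison), and for the transcription factors and RNA sensors. Other members are given by range or change. Receptors are always given, and any other gene of the lists was named after its values were seen. Alternatives were the fit of all 12 arrays, the replicate block, leaving out arrays, array weights, the filter, another quantile normalization, and 1 value per gene by the brightest or the mean probe set. Probe sets with several symbols were not used. Promoter windows and gene order are RefSeq's.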

Additional observations from a re-analysis of the deposited data

How the results depend on the processing

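No alternative reversed a direction among the 52 named results of the CsA and time comparisons. At 12 h the CsA count was 0 under each alternative run. At 48 h it was 0 under each setting that left out an array, against 12 in the fit of all 12 arrays and 10 with array weights (5 higher and 5 lower). For the difference of effects the count was 1 with the replicate block, IFI44L at an adjusted p = 0.0182, 3 with the brightest probe set of each gene, 2 with the mean of the probe sets and 8 with array weights. Leaving out single arrays gave 0 to 4 there, with 2 without replicate 2 and 4 without replicate 3 of CsA at 48 h, and 4 without replicate 3 of the 48 h controls. Over time with CsA the count was 14 to 30 without single arrays, 15 without both 48 h arrays numbered 1, and 14 with no filter on low values, where 56 member probe sets were tested. In control cells it was 12 to 18 without single arrays and 16 with the replicate block. The fit of all 12 arrays called 12.7% of all probe sets at 48 h, and the replicate block called 1.18% for the difference of effects. Shares of all probe sets under the other settings are not given here. The counts are therefore not read as a result about the members. The cause of these shifts was not tested. Of 352 values of named results over time with CsA, 61 lost the call, of 222 in control cells 25 did, and of 176 for CsA at 48 h 19 gained it. With the replicate block, which pairs arrays at 12 h and between the controls, no CsA call changed. In the other comparisons the rule for pairing was not met. There the block also ended 2 calls over time with CsA, IFIT5 203596_s_at (adjusted p = 0.0762) and SAMD9 219691_at (adjusted p = 0.114). With 3 arrays a group, spread and probe sets near background limit what could be detected.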

Other observations

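Other genes of the interferon lists also moved with time in both treatments. SLFN5, a nuclear repressor of some interferon targets, rose on 6 probe sets in each treatment, by log2 changes of 2.17 to 2.73 with CsA and 2.10 to 2.61 in control cells. WARS1, a tRNA synthetase that interferon gamma induces, rose by 2.44 (SE 0.14, adjusted p = 0.000287) with CsA and 2.38 (SE 0.16, adjusted p = 0.000274) in control cells on probe set 200629_at. IFI16, a sensor of DNA, rose on 3 probe sets, with 1.57 (SE 0.10, adjusted p = 0.000364) with CsA and 1.45 (SE 0.08, adjusted p = 0.000172) in control cells on 206332_s_at. CGAS, which detects cytosolic DNA, fell on 1559051_s_at, with a log2 change of -2.12 (SE 0.17, adjusted p = 0.000657) with CsA and -2.58 (SE 0.14, adjusted p = 0.000158) in control cells. The other CGAS probe set, 242077_x_at, had 0.03 (SE 0.10, adjusted p = 0.831) with CsA and -0.10 (SE 0.12, adjusted p = 0.55) in control cells. IRF3, the factor that switches on interferon beta, fell, with -1.10 (SE 0.17, adjusted p = 0.0044) with CsA and -1.06 (SE 0.11, adjusted p = 0.000991) in control cells. TNFSF10, the death ligand TRAIL, fell on 3 probe sets, with -2.46 (SE 0.28, adjusted p = 0.00168) with CsA and -1.88 (SE 0.30, adjusted p = 0.00453) in control cells on 202687_s_at. Over the list of other interferon-stimulated genes, 18 probe sets rose and 16 fell of 72 with CsA, and 20 rose and 15 fell in control cells, 47.2% and 48.6%, against 39.6% and 39.3% over all probe sets.

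Of 34 probe sets of MHC class I presentation, 9 rose with CsA (26.5%) and 4 in control cells (11.8%), against 19.6% and 20.4% higher over all probe sets, and none fell. ERAP1, which trims peptides for loading, rose on 214012_at by 1.94 (SE 0.36, adjusted p = 0.00866) with CsA and 3.11 (SE 0.50, adjusted p = 0.00455) in control cells. This probe set was dim in 12 h controls, at 2.88, 4.70 and 4.24. Brighter ERAP1 probe sets differed less between the times. With CsA and in control cells, 209788_s_at averaged 10.73 and 10.78 at 48 h, against 9.56 and 9.61 at 12 h. For 210385_s_at the means were 9.20 and 8.64 at 48 h, against 7.79 and 7.60 at 12 h. PSMB8, an immunoproteasome subunit, rose by 0.64 (SE 0.16, adjusted p = 0.0241) with CsA and 0.68 (SE 0.11, adjusted p = 0.00492) in control cells. Of 22 nucleic acid sensing probe sets, 9 rose and 3 fell with CsA, and 6 rose and 3 fell in control cells. These were 54.55% with CsA and 40.91% in control cells, against 39.57% and 39.28% of all probe sets. The share in control cells was near the background. Differences between the treatments passed for none of these lists. These genes were chosen after their values were seen.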
